A study of Mus musculus with 12 samples.

Results

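Knockout lungs were compared with wild type lungs after bleomycin injury, on 6 of the 12 arrays of the series. The wild type group was 3 arrays of whole-lung RNA from C57BL/6 mice given bleomycin endotracheally. The knockout group was 3 arrays from C57BL/6 mice lacking FIZZ2 and given the same drug, and both groups were taken at day 21. FIZZ2, also called RELM-beta, is the secreted product of Retnlb and belongs to the resistin family. The remaining 6 arrays, 3 of each genotype, came from lungs given saline the same way and served to show which genotype differences were present without injury. The comparison covers 18194 genes, taken from probe sets paired with exactly 1 gene, and a gene with several probe sets is represented by its brightest, judged by the average of all 12 arrays. The labels give no sex or age, do not state whether the arrays of a group are separate animals, and do not say which part of Retnlb is deleted or how the line was bred. The p-values therefore measure the spread between these samples, which may in part be technical.

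Bleomycin breaks DNA, injures the alveolar and bronchiolar epithelium and, in mice, is followed by inflammation and then by scarring in which activated fibroblasts lay down collagen. Proteins of the resistin-like family are small cysteine-rich secreted factors that are induced in epithelium and macrophages during type 2 immune responses. Macrophages exposed to the type 2 cytokines IL-4 and IL-13 express a program of genes called alternative activation, of which Retnla, Arg1 and Chil3 are the classical mouse markers.

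All values are log2 RMA values, in which a difference of 1 is a 2-fold difference in signal. Calling a gene required an adjusted p under 0.05 from limma, with Benjamini-Hochberg adjustment across every gene tested. Array medians lay between 5.58 and 5.68, and arrays of the same group correlated at 0.988 to 0.997 across probe sets. The defining lung genes were high on every bleomycin array: Sftpc of alveolar type 2 cells lay between 13.97 and 14.24, Scgb1a1 of club cells between 13.90 and 14.11, and Ager of alveolar type 1 cells between 13.61 and 13.94. None of these 3 genes passed the test, with adjusted p-values of 0.190, 0.413 and 0.174. Sftpb, another alveolar type 2 gene of the same check, was called higher in the knockout (0.49 ± 0.14, adjusted p = 0.0305). That call was lost in the fit of the 6 bleomycin arrays alone and without replicate 1 of either genotype or knockout replicate 3.

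After bleomycin, 2804 of 18194 genes differed between the genotypes (15.4% of genes tested). Of these, 1369 were higher in the knockout (7.52%) and 1435 were lower (7.89%). The larger differences lay mostly on the lower side: of 394 genes called and changed at least 2-fold (2.17%), 121 were higher (0.665%) and 273 were lower (1.5%). After saline, 89 genes were called (0.489%). The difference between the genotype differences after bleomycin and after saline was itself called for 914 genes (5.02%), of which 369 were positive (2.03%). The count after bleomycin depended on single arrays: it was 1863 without wild type replicate 1 and 1653 without knockout replicate 1.

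The targeted gene was read close to the lower end of the scale in every sample. Retnlb had values of 4.13, 3.80 and 3.98 on the wild type arrays and 3.67, 3.72 and 3.49 on the knockout arrays. The arrays did not overlap, which held for 6065 of the 18194 genes tested (33.3%) and for 2768 of the 2804 genes called. The Retnlb difference of -0.35 ± 0.11 (SE) had an adjusted p of 0.0502. The gene passed with the quantile normalization repeated (adjusted p = 0.0183), with a variance trend (0.0442) and without wild type replicate 2 (0.028). Its adjusted p reached 0.178 without wild type replicate 1. In the fit with probe sets averaged it was 0.0492, but Retnlb has 1 probe set. Its values and its difference of -0.35 were unchanged there, and only those of other genes differed. The 25th percentile of probe sets with 1 gene over these 6 arrays was 4.06, and the wild type mean of Retnlb lay under it, so this probe set gave a weak check of the labels. Where it lies relative to the deleted part is not given in the sources used here.

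Retnla, which encodes the related protein RELM-alpha (FIZZ1), was the sixth largest named fall of the comparison. It lies on chromosome 16, as does Retnlb, and whether the altered locus affects it was not tested. It read 12.16, 12.31 and 12.24 on the wild type arrays and 8.91, 9.70 and 10.10 on the knockout arrays. Every knockout array lay more than 2 log2 units below every wild type array. The fall was 6.35-fold (-2.67 ± 0.22 on the log2 scale, adjusted p = 2.13e-05), while after saline the genotype difference was -0.34 (adjusted p = 0.648). The difference between these values passed the test (-2.33, adjusted p = 0.00298). Retn, which encodes resistin, read 6.80, 6.80 and 6.58 in wild type and 6.11, 6.71 and 8.40 in the knockout. Its arrays overlapped, knockout replicate 3 stood above all others, and the difference of 0.35 ± 0.48 did not pass (adjusted p = 0.688).

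The 250 bases before the start of Retnla are shown because this family member fell and its promoter is a textbook target of STAT6, the transcription factor downstream of IL-4 and IL-13, and of C/EBP factors. Capitals mark a match to TTCNNNNGAA, the spacing that STAT6 prefers, 145 to 136 bases before the start, and a match to TTGCNNAA, a C/EBP pattern, 134 to 127 bases before it. Saa3 is shown beside it as the largest fall, with its own C/EBP match 99 to 92 bases before the start. Both patterns were searched on both strands of the 250 bases, and in the promoters of RefSeq (GRCm38.p6) the first occurred in 5.85% and the second in 9.56% of 32851 promoters. Among the 15 largest falls, 9 promoters were matched, of which 1 held the first pattern and 2 held the second. Over all genes called lower, 5.13% of promoters held the first pattern and 8.28% the second. The shares were 4.99% and 8.34% over genes tested, and 4.97% and 11.5% over genes called higher. The Retnla bases lie at chr16:48842359-48842608 on the + strand and those of Saa3 at chr7:46715677-46715926 on the - strand, both written 5′ to 3′ along the gene.
Retnla: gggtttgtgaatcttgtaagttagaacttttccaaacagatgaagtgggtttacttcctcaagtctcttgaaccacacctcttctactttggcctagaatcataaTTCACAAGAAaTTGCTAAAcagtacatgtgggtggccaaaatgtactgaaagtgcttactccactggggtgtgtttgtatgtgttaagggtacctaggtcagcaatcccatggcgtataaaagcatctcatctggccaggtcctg
Saa3: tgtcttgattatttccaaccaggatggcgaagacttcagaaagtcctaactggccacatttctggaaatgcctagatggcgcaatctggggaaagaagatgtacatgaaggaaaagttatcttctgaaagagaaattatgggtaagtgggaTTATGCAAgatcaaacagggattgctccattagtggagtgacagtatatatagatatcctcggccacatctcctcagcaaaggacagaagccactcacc
A match of letters is a description and not a binding site.

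The largest falls in the knockout were those of Saa3, Chl1, Arg1, Timp1 and Fst. Saa3, an acute-phase serum amyloid made locally by macrophages and epithelium, read 13.03, 11.47 and 10.91 in wild type and 6.88, 7.58 and 8.83 in the knockout. Both groups were spread widely. The lowest wild type array was above the highest knockout array, which the rule for choosing these genes required. Saa3 fell 16.4-fold (-4.04 ± 0.50, adjusted p = 0.000236). Arg1, the arginase that turns arginine into ornithine, read 10.85, 9.09 and 8.31 in wild type and 5.72, 6.03 and 5.90 in the knockout, a fall of 11.6-fold (-3.54 ± 0.43, adjusted p = 0.000236). The 3 knockout arrays lay close together, and wild type replicate 1 was the highest of the wild type arrays for both genes. Without that array the falls were -3.42 for Saa3 and -2.82 for Arg1, and both were still called.

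Timp1, the secreted inhibitor of matrix metalloproteinases, read 11.81, 10.39 and 10.84 in wild type and 7.34, 8.07 and 8.36 in the knockout, 8.51-fold lower (-3.09 ± 0.31, adjusted p = 5.59e-05). Chl1, a cell adhesion molecule of the L1 family, read 8.5, 7.70 and 7.91 against 3.77, 4.32 and 4.81, 13.3-fold lower (-3.74 ± 0.23, adjusted p = 3.67e-06). For Chl1 the knockout values were near the lower end of the scale, 2 of its 4 probe sets were called, and the mean of the 4 gave -1.70. Fst, which encodes the activin-binding protein follistatin, read 9.47, 8.25 and 8.45 against 6.01, 5.76 and 6.11 (-2.76 ± 0.25, adjusted p = 3.39e-05). None of these 3 genes had overlapping arrays, which the rule for choosing them required.

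The other named falls lay between -2.60 and -2.38. They included the monocyte chemokine Ccl12 (-2.59), the matrix proteins Thbs4 (-2.58) and Lama1 (-2.57), the secreted Wnt antagonist Frzb (-2.52), the pericyte-enriched signalling regulator Rgs5 (-2.42), the EGF receptor ligand Ereg (-2.41) and the lubricating proteoglycan Prg4 (-2.38). Pla1a, a phospholipase, and Clca3a1, a protein of the calcium-activated chloride channel regulator family, fell by 2.60 and 2.40. For Frzb and Ereg the knockout mean lay under the 25th percentile of probe sets. For Prg4 the difference from the saline comparison did not pass (-2.36, adjusted p = 0.0665).

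**Figure D1:**
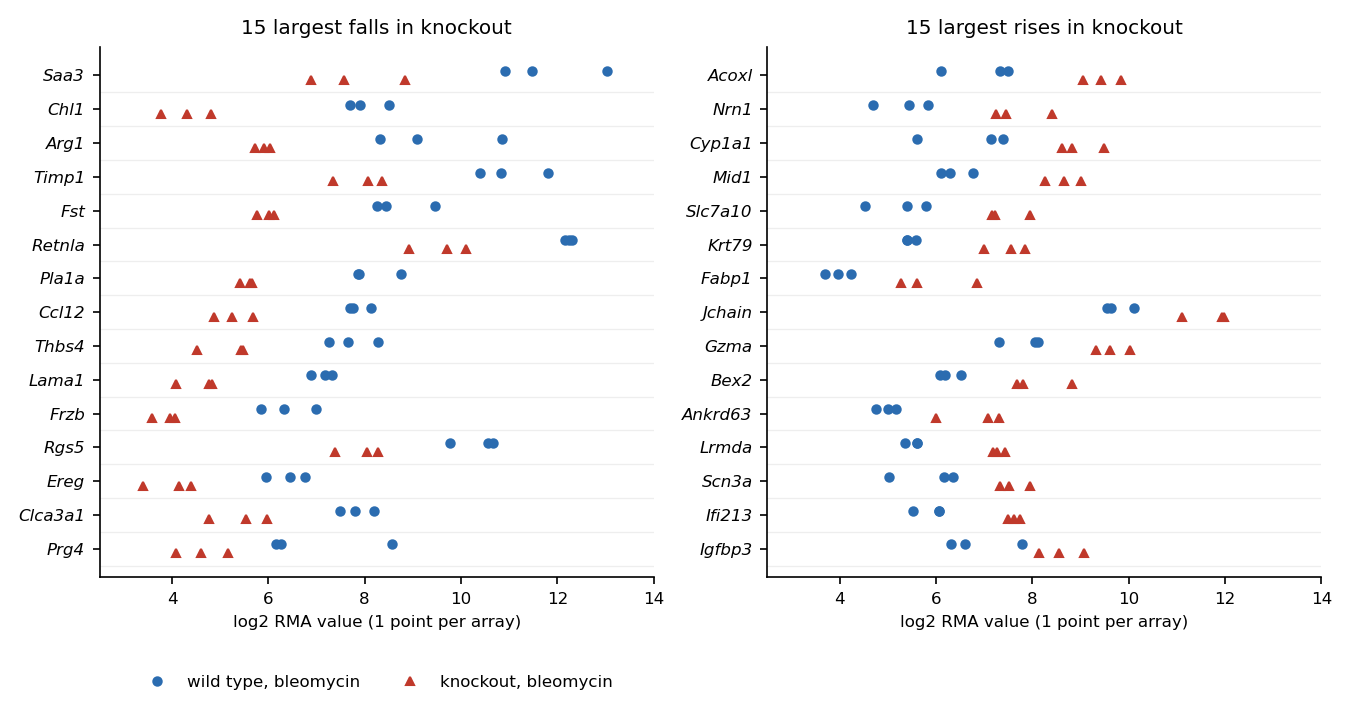
Log2 RMA values (x axis) of the 15 largest named falls and 15 largest named rises in the knockout after bleomycin. Each point is 1 array, with wild type arrays as blue circles and knockout arrays as red triangles. In every gene plotted the 3 knockout arrays lie wholly on one side of the 3 wild type arrays, which the rule for choosing these genes required.

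Levels in all 4 groups showed where these genes started. Saa3 had a mean of 6.83 ± 0.27 (SD, n = 3) in wild type lungs after saline and 11.80 ± 1.10 after bleomycin, and in the knockout 6.73 ± 0.27 and 7.76 ± 0.99. Arg1 had means of 5.04 ± 0.19 and 9.42 ± 1.30 in wild type, and 5.66 ± 0.10 and 5.88 ± 0.16 in the knockout. Timp1 had means of 7.0 ± 0.26 and 11.01 ± 0.73 in wild type, and 6.60 ± 0.08 and 7.92 ± 0.52 in the knockout. The saline groups of both genotypes differed by -0.09, 0.62 and -0.40 in these genes, none of which passed, and the wild type bleomycin group stood apart. Acoxl, an acyl-CoA oxidase-like gene, had the mirrored order: 9.60 ± 0.24 and 6.98 ± 0.76 in wild type, and 9.53 ± 0.16 and 9.44 ± 0.39 in the knockout. The bleomycin and genotype values of a gene share arrays and are given side by side only.

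**Figure D2:**
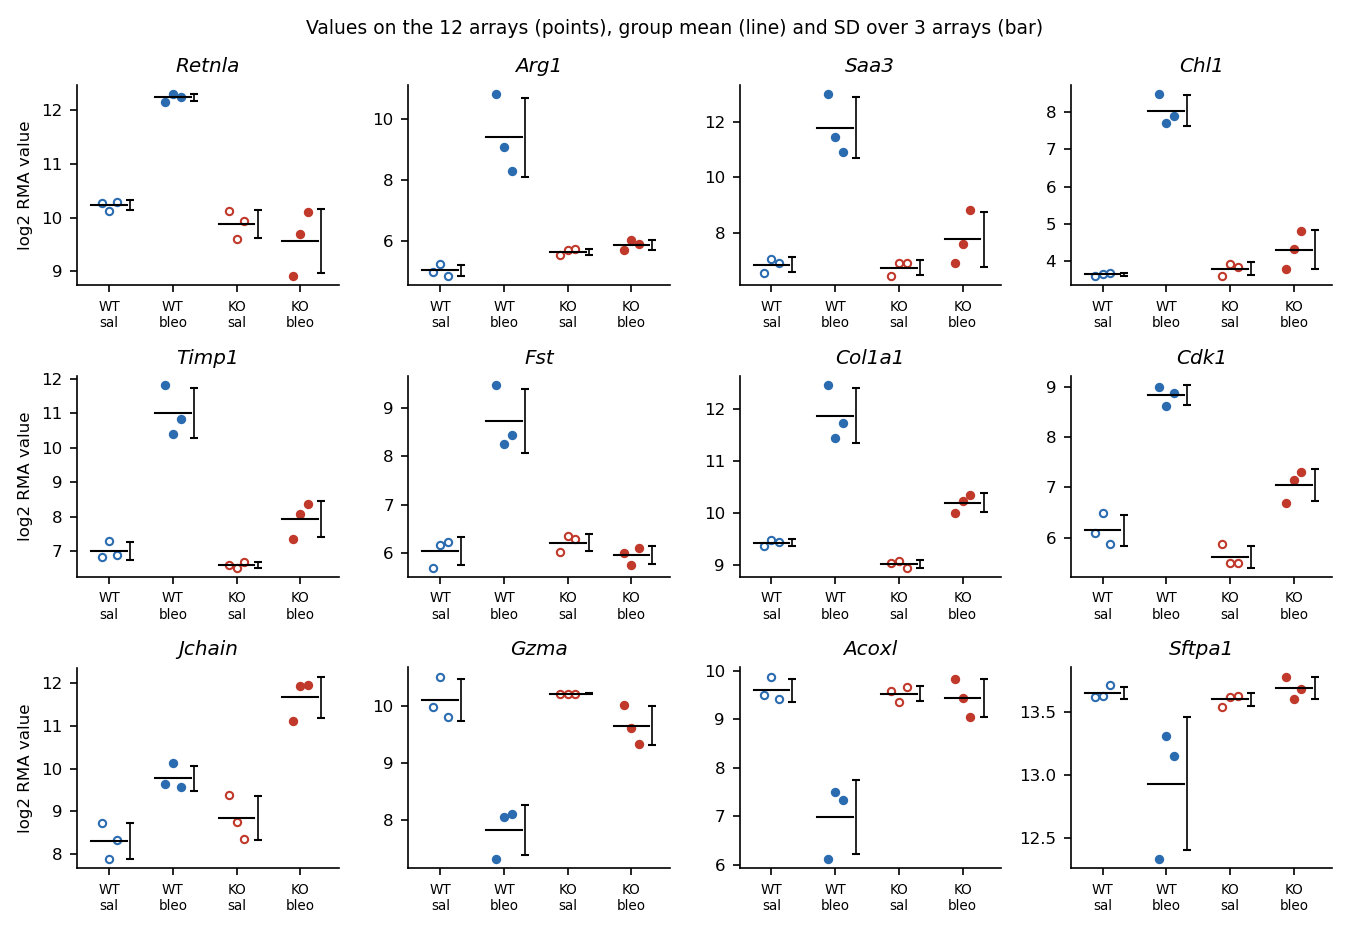
Log2 RMA values of 12 genes in the 4 groups (WT wild type, KO knockout, sal saline, bleo bleomycin), with 1 point per array, a line at the group mean and a bar for the SD over 3 arrays. For Retnla, Arg1, Saa3, Chl1, Timp1 and Fst the wild type bleomycin arrays lie above the other 3 groups, and for Acoxl and Gzma they lie below them.

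Genes of DNA replication and mitosis were lower in the knockout nearly throughout the list. Of 38 measured cell cycle genes, 35 fell and none rose (7.89% of all genes tested fell), with a median of -1.29 against 0.03 over all genes and -0.22 for the same list after saline. With all probe sets of each gene averaged the median was -0.75, and 35 genes were again called lower. The fall was at least 2-fold in 24 of them, and the difference from the saline comparison was called in 24. Cdk1, the kinase that drives entry into mitosis, read 9.01, 8.62 and 8.89 in wild type and 6.69, 7.14 and 7.31 in the knockout (-1.79 ± 0.18, adjusted p = 6.51e-05). Its lowest wild type array was more than 1 log2 unit above its highest knockout array. Mki67, the proliferation antigen Ki-67, read 9.61, 9.33 and 9.59 against 7.20, 8.06 and 8.12 (-1.72 ± 0.26, adjusted p = 0.00103).

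The smallest p-values of that list belonged to mitotic genes. The spindle kinesin Kif20a fell 3.30-fold (-1.72 ± 0.12), the mitotic kinase Plk1 3.02-fold (-1.59 ± 0.12), the checkpoint kinase Bub1 2.77-fold (-1.47 ± 0.12), Aurka, which encodes a centrosomal kinase, 2.43-fold (-1.28 ± 0.11) and the spindle motor Kif11 3.09-fold (-1.63 ± 0.16). Their adjusted p-values lay between 6e-06 and 4.7e-05. With probe sets averaged, the differences were -0.90 for Bub1 and -0.64 for Aurka, both still called. The members that did not pass were cyclin D1 (Ccnd1, -0.10), the transcription factor Foxm1 (-0.15) and the chromatin remodeller Hells (-0.26). Hells and Foxm1 have several probe sets, and the means over them were -0.79 (adjusted p = 0.00189) and -0.27 (adjusted p = 0.0434). The mean over the whole list was 7.93, 7.64 and 7.82 on the wild type arrays and 6.39, 6.71 and 6.75 on the knockout arrays, without overlap. In bulk RNA, fewer cells of a kind and less of the transcript per cell cannot be told apart.

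Promoters of these genes are shown because the members moved together. Many cell cycle promoters are known to carry CCAAT boxes, bound by NF-Y, and a cell cycle homology region (CHR), bound by the DREAM and MuvB complexes. Both strands of the 250 bases before the start were searched for CCAAT and for TTTGAA in the RefSeq promoters of GRCm38.p6. Of the 38 genes, 30 matched, with 33 promoters. CCAAT occurred in 28 of the 33 (84.8%), against 33.8% of all 32851 promoters. TTTGAA occurred in 9 (27.3%), against 16% of all promoters. Both occurred together in 9 (27.3%), against 5.55% of all promoters. The list was made of cell cycle genes, so an excess of these letters does not bear on the genotype difference. Over all genes called lower, CCAAT occurred in 36.1% of promoters, TTTGAA in 12.2% and both in 5.57%. The shares were 34.7%, 11.9% and 4.25% over genes tested, and 32.7%, 10.3% and 3.93% over genes called higher.

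The promoters of Cdk1, Ccnb2 (cyclin B2) and Ube2c (a ubiquitin-conjugating enzyme of the anaphase-promoting complex) are 3 that hold both, chosen after the search. Capitals mark CCAAT or its reverse ATTGG, and TTTGAA or its reverse TTCAAA. Ccnb2 fell by 1.64 and Ube2c by 1.73 on the log2 scale (adjusted p = 6.33e-05 and 5.89e-05). The bases lie at chr10:69352913-69353162 on the - strand for Cdk1, at chr9:70421555-70421804 on the - strand for Ccnb2 and at chr2:164769679-164769928 on the + strand for Ube2c.
Cdk1: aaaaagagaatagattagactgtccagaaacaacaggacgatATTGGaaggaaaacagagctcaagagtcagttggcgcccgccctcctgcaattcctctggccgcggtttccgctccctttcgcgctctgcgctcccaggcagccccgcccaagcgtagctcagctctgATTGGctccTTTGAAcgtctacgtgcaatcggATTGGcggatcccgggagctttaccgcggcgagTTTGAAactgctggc
Ccnb2: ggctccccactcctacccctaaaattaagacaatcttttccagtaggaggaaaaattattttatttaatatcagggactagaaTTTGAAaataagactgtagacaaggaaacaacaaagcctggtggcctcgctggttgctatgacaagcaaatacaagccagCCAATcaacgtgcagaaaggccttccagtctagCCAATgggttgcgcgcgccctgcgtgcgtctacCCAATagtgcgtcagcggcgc
Ube2c: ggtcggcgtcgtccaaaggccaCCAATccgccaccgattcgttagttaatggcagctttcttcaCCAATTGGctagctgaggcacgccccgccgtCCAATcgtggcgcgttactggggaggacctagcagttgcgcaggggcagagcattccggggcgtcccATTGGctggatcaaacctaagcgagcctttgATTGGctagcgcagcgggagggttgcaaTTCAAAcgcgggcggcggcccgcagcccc
Ube2c holds 2 of its CCAAT matches, 1 on each strand, overlapping at 186 to 179 bases before the start.

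**Figure D3:**
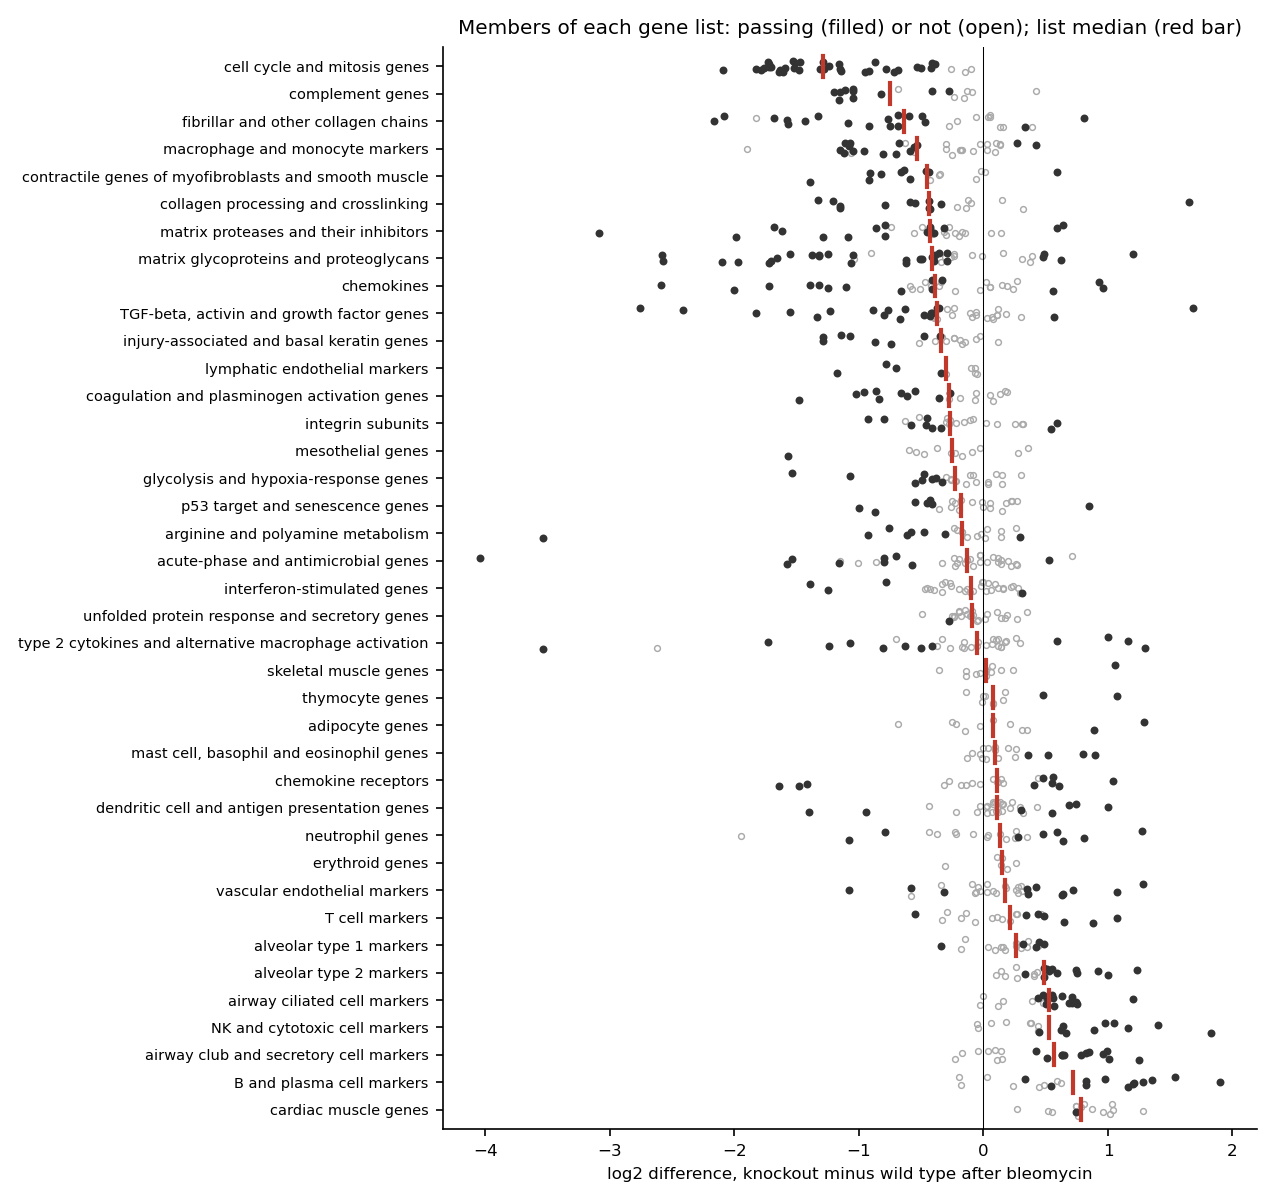
Log2 difference between knockout and wild type after bleomycin (x axis) for the members of each gene list (1 point per gene, filled where the adjusted p was under 0.05), with the list median as a red bar and lists ordered by median. The cell cycle list has the lowest median, -1.29, with filled points on the lower side only.

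Genes of the scar matrix were lower in the knockout. Of 28 collagen chains, 16 fell and 2 rose (64.3% called, against 15.4% of all genes). Their median was -0.64, and 8 fell at least 2-fold. Col1a1, a chain of type I collagen, read 12.46, 11.44 and 11.73 in wild type and 10.01, 10.23 and 10.35 in the knockout, 3.20-fold lower (-1.68 ± 0.19, adjusted p = 0.000145). The lowest wild type array stood more than 1 log2 unit above the highest knockout array. Col5a2, which nucleates fibrils, fell 2.99-fold (-1.58 ± 0.15, adjusted p = 3.93e-05), and Col8a1, a short-chain collagen of vessels and injured tissue, fell 4.46-fold (-2.16 ± 0.21, adjusted p = 5.28e-05). Smaller falls were measured for Col1a2 (-0.92 ± 0.13) and the basement membrane chain Col4a1 (-0.77 ± 0.09). Col3a1, the type III collagen chain, was lower by nearly the same amount after bleomycin (-0.49, adjusted p = 0.00511) and after saline (-0.55, adjusted p = 0.0303). Col11a1 read 7.01, 5.16 and 3.44 in wild type and 3.35, 3.63 and 3.13 in the knockout, overlapping, and did not pass (adjusted p = 0.0528).

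Among 41 matrix glycoproteins and proteoglycans, 24 fell and 4 rose (68.3% called, against 15.4% of all genes), with a median of -0.41. Of these, 14 falls and 1 rise were at least 2-fold, and the highest difference in the list was 1.20. Fn1, the fibronectin gene, read 13.25, 12.91 and 12.97 in wild type and 11.43, 11.76 and 11.98 in the knockout (-1.32 ± 0.13, adjusted p = 5.13e-05). The arrays did not overlap, and the difference from the saline comparison was called (-1.35, adjusted p = 0.00298). Lama1, a laminin chain, fell 5.95-fold and Thbs4 5.99-fold, followed by Thbs2, which encodes another thrombospondin (3.93-fold, -1.97 ± 0.22), and Mfap5, a microfibril protein (2.08-fold, -1.06 ± 0.12).

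Enzymes that process and crosslink collagen followed, with 11 of 18 lower and 1 higher (median -0.44). The share called was 66.7%, against 15.4% of all genes. P4ha3, a prolyl hydroxylase subunit (-1.15 ± 0.12), Tgm1, a transglutaminase (-1.21 ± 0.15), Plod1, a lysyl hydroxylase (-0.79 ± 0.11), and Loxl3, a lysyl oxidase (-1.15 ± 0.18), fell. The member that rose was Pcolce2, an enhancer of procollagen cleavage, which read 9.32, 10.05 and 9.84 in wild type and 11.68, 11.13 and 11.35 in the knockout (1.65 ± 0.17, adjusted p = 6.7e-05). The knockout mean of P4ha3 was under the 25th percentile of probe sets, and the mean over both Plod1 probe sets was -0.46. Without wild type replicate 1, 7 of the 18 genes were called lower.

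Proteases and their inhibitors had 14 of 29 members lower and 2 higher (55.2% called, against 15.4% of all genes, median -0.43). Beside Timp1, the collagenase Mmp13 read 5.93, 5.63 and 6.14 in wild type and 3.56, 4.49 and 3.68 in the knockout (-1.99 ± 0.20, adjusted p = 6.33e-05), with the knockout mean at the lower end of the scale. Adam12, a membrane metalloproteinase of activated stroma, fell by 1.62 (SE 0.24), the aggrecanase Adamts4 by 1.68 (SE 0.25) and the membrane-bound collagenase Mmp14 by 1.29 (SE 0.19). Their adjusted p-values were 0.000697, 0.000761 and 0.000814. The gelatinase Mmp2 did not pass (-0.32, adjusted p = 0.168). Without knockout replicate 1, 9 of the 29 were called lower.

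Ligands and modulators of growth factor signalling had 17 of 37 members lower and 2 higher (median -0.37). That is 51.4% of the list, against 15.4% of all genes called. Igfbp3 was among the members that rose (1.68 ± 0.30, adjusted p = 0.00285). Igf1, a growth factor of macrophages and fibroblasts, read 10.86, 10.41 and 10.27 in wild type and 8.06, 8.87 and 9.13 in the knockout, 3.54-fold lower (-1.83 ± 0.24, adjusted p = 0.000421). The arrays were more than 1 log2 unit apart at their nearest. Fstl1, a follistatin-like secreted protein, fell by 1.34 (SE 0.19) and Ccn4, a matricellular Wnt target, by 1.55 (SE 0.23). Tgfb1, the central profibrotic ligand, read 9.78, 9.31 and 9.62 against 9.32, 9.24 and 9.26, overlapping, and did not pass (-0.29 ± 0.10, adjusted p = 0.0774). Its receptor gene Tgfbr1 (-0.25, adjusted p = 0.0842) and Pdgfra of fibroblasts (0.08, adjusted p = 0.720) did not pass either.

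Contractile genes that mark myofibroblasts and smooth muscle had 9 of 16 members lower and 1 higher (median -0.45). That is 62.5% of the list, against 15.4% of all genes called. Acta2, the smooth muscle actin of myofibroblasts, read 12.78, 12.12 and 12.08 in wild type and 11.30, 11.49 and 11.48 in the knockout (-0.91 ± 0.19, adjusted p = 0.00585). These groups did not overlap, while the difference from the saline comparison did not pass (-0.92, adjusted p = 0.0632), and 1 of the 3 Acta2 probe sets was called, with a mean over the 3 of -0.56. Tagln, the actin-binding protein transgelin (-0.92 ± 0.19), Tpm1, a tropomyosin (-0.59 ± 0.10), and Cald1, caldesmon (-0.46 ± 0.09), also fell. Itga8, an integrin chain of alveolar fibroblasts and smooth muscle, rose (0.59 ± 0.10, adjusted p = 0.00171). The calls of Tpm1 and Itga8 were lost when all probe sets of the gene were averaged.

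Macrophage markers were lower in 13 and higher in 2 of 33 genes (45.5% called, against 15.4% of all genes). The median was -0.53 after bleomycin and 0.11 after saline, and the difference from the saline comparison was called in 9 genes. The 2 rises became none without wild type replicate 1 or 2 or without knockout replicate 1 or 2, and 1 without replicate 3 of either genotype. The median was -0.35 without wild type replicate 1, and -0.30 without knockout replicate 1 or with probe sets averaged. Fcgr2b, an inhibitory Fc receptor, read 10.74, 10.18 and 10.14 in wild type and 8.99, 9.25 and 9.47 in the knockout (-1.12 ± 0.16, adjusted p = 0.000578). Fcrls, an Fc receptor-like scavenger receptor, fell by 1.08 (SE 0.17) and the mannose receptor Mrc1 by 0.68 (SE 0.11). The phagocyte lysosomal marker Cd68 was lower after bleomycin (-0.56, adjusted p = 0.00441), and this differed from its saline value (difference -1.02, adjusted p = 0.00480). Csf1r, the receptor for the macrophage growth factor CSF1, did not pass (-0.17, adjusted p = 0.204).

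Complement genes had 10 of 16 members lower and none higher (median -0.75), 4 of which also stand on the macrophage or integrin lists. The share called was 62.5%, against 15.4% of all genes. The classical pathway chains C1qa, C1qb and C1qc, made mostly by macrophages, fell by 1.05, 1.11 and 1.15 (SE 0.20 for each). C3ar1, the receptor for the C3a fragment, read 8.76, 8.64 and 8.47 in wild type and 6.79, 7.75 and 7.74 in the knockout (-1.20 ± 0.20, adjusted p = 0.00185). Knockout replicate 1 was the lowest array for each of these 4 genes. Cd59a, an inhibitor of the membrane attack complex, was lower in the knockout after both treatments and is described with those genes.

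Genes of type 2 immunity did not move together. Of 35 measured, 8 fell and 4 rose (34.3% called, against 15.4% of all genes). The median was near 0 (-0.05, and -0.16 to -0.02 over the alternatives). Beside Arg1, the scavenger receptor Msr1 read 8.49, 8.06 and 7.88 in wild type and 5.70, 6.85 and 6.68 in the knockout (-1.73 ± 0.24, adjusted p = 0.000472). The receptor chain Il4ra, which binds IL-4 and IL-13 signals, fell by 0.81 (SE 0.14), and the transcription factor Myc fell by 1.07 (SE 0.12). The means over all probe sets were -1.08 for Msr1 and -0.53 for Il4ra, both still called. Gata3, the transcription factor of type 2 lymphocytes, rose, from 5.12, 5.21 and 4.87 in wild type to 6.09, 6.11 and 6.00 in the knockout (1.0 ± 0.09, adjusted p = 2.83e-05).

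Classical members of that list outside these calls showed no difference that passed. Chil3 (Ym1), an alternative activation marker, read 12.57, 12.63 and 11.89 in wild type and 12.46, 12.33 and 12.34 in the knockout (0.02 ± 0.16, adjusted p = 0.962). The cytokine genes Il4 (-0.16, adjusted p = 0.374) and Il13 (-0.05, adjusted p = 0.824) were read under 4 on every bleomycin array, at the lower end of the scale. The number of genes called lower was 5 without wild type replicate 2, without knockout replicate 1 or without knockout replicate 2.

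Chemokine genes had 11 of 30 members lower and 3 higher (median -0.39), and several of those that fell attract monocytes. The share called was 46.7%, against 15.4% of all genes. Without wild type replicate 1 the median was -0.20. Ccl12 read 8.13, 7.75 and 7.69 in wild type and 4.87, 5.24 and 5.69 in the knockout (-2.59 ± 0.23, adjusted p = 2.83e-05). Ccl2, the main monocyte attractant, read 6.81, 5.41 and 6.03 against 3.95, 3.91 and 4.37 (-2.0 ± 0.25, adjusted p = 0.000268). Neither gene had overlapping arrays, which for Ccl12 the rule for choosing the largest falls required. Ccl7, another CCR2 ligand (-1.32 ± 0.20), Ccl9, a ligand of CCR1 (-1.10 ± 0.16), and the stromal factor Cxcl12 (-0.66 ± 0.09) also fell.

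Chemokine receptors were split, with 3 of 21 lower and 6 higher (42.9% called, against 15.4% of all genes). The atypical receptor Ackr3, which scavenges CXCL12, read 11.33, 11.01 and 11.19 in wild type and 9.77, 9.79 and 9.70 in the knockout, 2.68-fold lower (-1.42 ± 0.10, adjusted p = 7.92e-06). Ccr1, a receptor of monocytes and neutrophils (-1.48 ± 0.20), and Ackr1, the atypical receptor of venules (-1.64 ± 0.28), fell as well. The lymphocyte receptors Cxcr4 (0.61 ± 0.11) and Cxcr5 (1.04 ± 0.21) rose. The 6 rises became 2 without wild type replicate 1 or without knockout replicate 1, and 3 without wild type replicate 2.

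Acute-phase and antimicrobial genes had 8 of 36 members lower and 1 higher, 25% of the list against 15.4% of all genes called. The median was -0.13, and -0.07 without wild type replicate 1 and -0.20 without wild type replicate 2. Socs3, the feedback inhibitor of IL-6 family signalling, read 11.22, 10.80 and 10.97 in wild type and 9.01, 9.24 and 9.98 in the knockout (-1.58 ± 0.19, adjusted p = 0.000219). The arrays did not overlap. Lif, a cytokine of that family, fell by 1.16 (SE 0.13), Serpina3n, a secreted protease inhibitor, by 1.54 (SE 0.20) and Il1rn, the interleukin-1 receptor antagonist, by 0.80 (SE 0.15). With probe sets averaged the differences of Lif and Il1rn were -0.50 and -0.49. Il6 itself read 6.07, 4.90 and 5.13 in wild type and 3.52, 3.69 and 5.45 in the knockout. Knockout replicate 3 lay among the wild type arrays, and the gene did not pass (-1.15 ± 0.41, adjusted p = 0.0812).

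Of 32 interferon-stimulated genes, 3 were lower and 1 was higher. That is 12.5% of the list, near the 15.4% of all genes called. The lower ones were the CXCR3 ligands Cxcl10 (-1.39 ± 0.22, adjusted p = 0.00121) and Cxcl9 (-1.25 ± 0.23, adjusted p = 0.00314) and the immunity-related GTPase Iigp1 (-0.78 ± 0.21, adjusted p = 0.0261). The mean over both Cxcl9 probe sets was -0.76, and the call of Iigp1 was lost in the fit of the 6 bleomycin arrays alone and without wild type replicate 1 or 3 or knockout replicate 1. For both chemokines knockout replicate 3 was the highest knockout array, and without it 9 interferon-stimulated genes were called lower.

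Genes of cytotoxic cells and of B and plasma cells were called in the higher direction only. Of 18 genes of natural killer and cytotoxic cells, 10 rose and none fell (7.52% of all genes rose). The median was 0.53 after bleomycin and 0.09 after saline. The difference from the saline comparison was called in 2 of the 18, and in 5.02% of all genes. Gzma, a serine protease of cytotoxic granules, read 7.31, 8.05 and 8.11 in wild type and 10.02, 9.62 and 9.33 in the knockout, 3.57-fold higher (1.83 ± 0.23, adjusted p = 0.000236). Its groups were more than 1 log2 unit apart at their nearest, and the difference from the saline comparison was called (1.72, adjusted p = 0.0104). Nkg7, a granule membrane protein (1.16 ± 0.16), Gzmb, a second granzyme (1.05 ± 0.15), Klrd1, the CD94 receptor (0.89 ± 0.11), and Klra8, the Ly49H receptor (1.40 ± 0.24), also rose. The wild type mean of Klra8 lay under the 25th percentile of probe sets.

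B and plasma cell genes had 12 of 20 members higher and none lower (60% called, against 15.4% of all genes). The median was 0.72, and 0.32 after saline, and the difference from the saline comparison was called in 2 genes. Jchain, which joins the units of secreted IgA and IgM, read 9.63, 10.12 and 9.56 in wild type and 11.11, 11.94 and 11.97 in the knockout, 3.74-fold higher (1.90 ± 0.29, adjusted p = 0.000956). The alpha heavy chain gene Igha rose by 1.35 (SE 0.16) and Mzb1, an endoplasmic reticulum protein of plasma cells, by 1.28 (SE 0.16). Cd79a and Cd79b, the signalling chains of the B cell receptor, rose by 1.16 (SE 0.19) and 1.20 (SE 0.20). The difference from the saline comparison was called for Igha (1.16, adjusted p = 0.0152) and Mzb1 (0.91, adjusted p = 0.0388) and not for Jchain (1.38, adjusted p = 0.0710), Cd79a (0.55) or Cd79b (0.88).

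T cell genes had 6 of 19 members higher and 1 lower (36.8% called, against 15.4% of all genes, median 0.21). Cd8b1, a chain of the CD8 co-receptor, read 4.74, 5.19 and 5.13 in wild type and 6.36, 5.90 and 6.02 in the knockout (1.07 ± 0.13, adjusted p = 0.000223). The adhesion molecule Cd2 (0.88 ± 0.17) and the co-stimulatory receptor Cd28 (0.65 ± 0.14) rose, and the inhibitory receptor Ctla4 fell (-0.55 ± 0.13, adjusted p = 0.0132). Cd4 (-0.14, adjusted p = 0.436) and Foxp3 (-0.33, adjusted p = 0.0911), markers of helper and regulatory T cells, did not pass. The 6 rises became 3 without wild type replicate 1 or without knockout replicate 1, which also ended the call of Ctla4. The mean over both Cd28 probe sets was 0.43.

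Dendritic cell and antigen presentation genes had 5 of 31 members higher and 2 lower (22.6% called, against 15.4% of all genes). Fscn1, the actin-bundling protein of mature dendritic cells (-1.40 ± 0.22), and Batf3, a transcription factor of cross-presenting dendritic cells (-0.94 ± 0.16), fell. H2-Ob and H2-Oa, the chains of the class II modulator H2-O, rose by 1.0 (SE 0.23) and 0.74 (SE 0.17). The 5 rises became 2 without wild type replicate 1 or without knockout replicate 3, and 3 without knockout replicate 1. Of 17 genes of mast cells, basophils and eosinophils, 4 rose and none fell (23.5% called, median 0.09). The rises were led by Hdc, the histamine-forming enzyme (0.90 ± 0.19, adjusted p = 0.00642). In this list 1 gene was called without wild type replicate 1 and 2 without knockout replicate 3.

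Neutrophil genes differed in both directions and had the most genes called after saline of the 40 lists. After bleomycin 6 of 21 were higher and 2 lower (38.1% called, against 15.4% of all genes). After saline 7 were called, against 0.489% of all genes, and the medians were 0.13 and 0.67 in turn. The first moved between -0.01 without knockout replicate 3 and 0.20 without wild type replicate 1. S100a9, a calprotectin chain, read 9.27, 8.98 and 8.56 in wild type and 10.47, 9.79 and 10.37 in the knockout after bleomycin (1.27 ± 0.25, adjusted p = 0.00464), and its saline difference was 1.37 (adjusted p = 0.0325). The gelatinase Mmp9 (0.64 after bleomycin and 0.84 after saline) and the receptor Csf3r (0.59 and 0.93) were likewise higher in the knockout after both. In contrast, the collagenase Mmp8 (-0.79 ± 0.13) and the decoy receptor Il1r2 (-1.08 ± 0.18) were lower after bleomycin. The 6 rises became 3 without wild type replicate 3 and 2 without knockout replicate 1, which also ended the call of Csf3r.

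**Figure D4:**
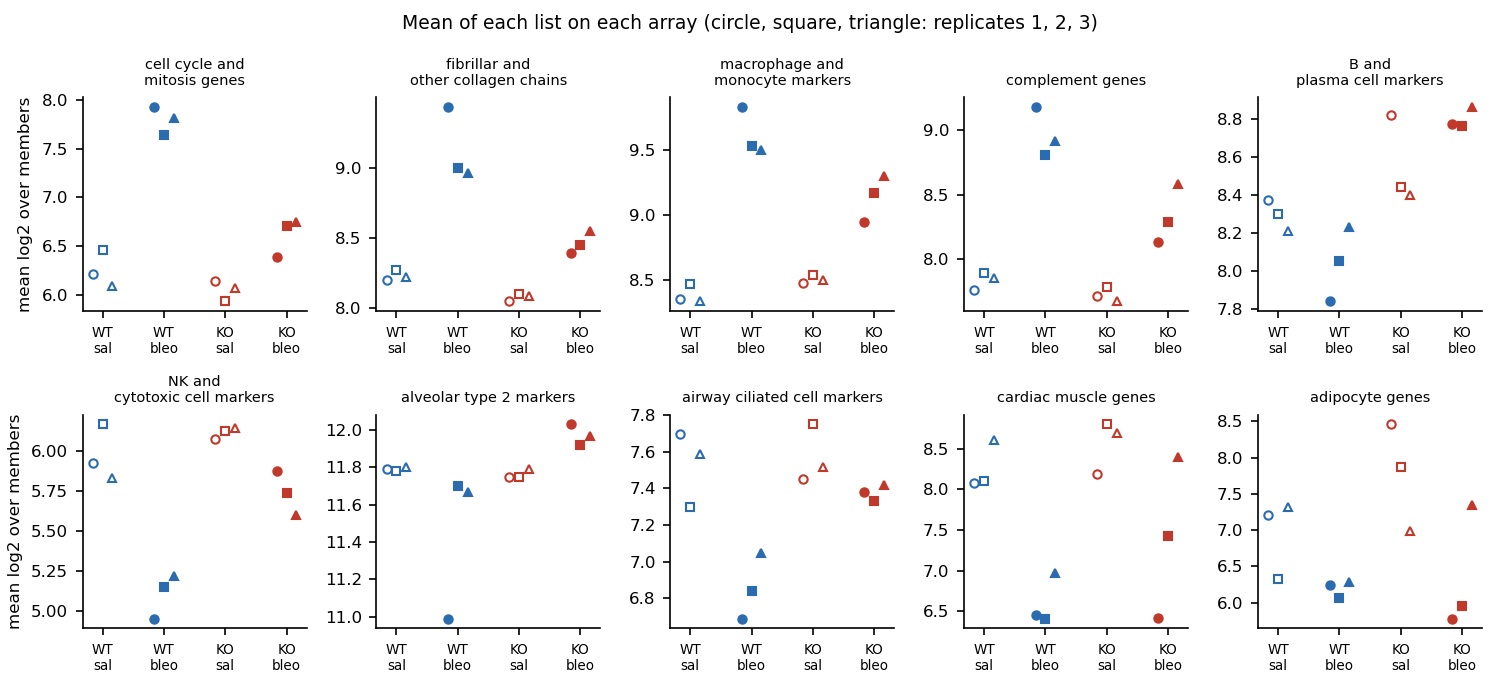
Mean log2 RMA value over the measured members of 10 gene lists (y axis) on each array in the 4 groups, with circle, square and triangle for replicates 1, 2 and 3, open symbols for saline and filled symbols for bleomycin. The cell cycle means of the wild type bleomycin arrays (7.64 to 7.93) lie above those of the knockout bleomycin arrays (6.39 to 6.75), and for alveolar type 2 markers wild type replicate 1 lies lowest at 10.99.

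Marker genes of airway ciliated, club and alveolar type 2 cells were called in the higher direction only. Of 22 genes of airway ciliated cells, 15 rose and none fell (68.2% called, against 15.4% of all genes). The median was 0.53 after bleomycin and 0.07 after saline, and the difference from the saline comparison was called in 2 genes. Tppp3, a microtubule-bundling protein of ciliated cells, read 9.96, 10.29 and 10.48 in wild type and 11.57, 11.20 and 11.54 in the knockout (1.20 ± 0.13, adjusted p = 9e-05). Axonemal genes such as the dynein chain Dnah11 (0.44 ± 0.08) and the tektin Tekt4 (0.74 ± 0.13) rose, while Foxj1, the transcription factor of ciliogenesis, did not pass (0.39 ± 0.15, adjusted p = 0.0939). The 15 rises became 9 without wild type replicate 1 or without knockout replicate 3.

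Club cell genes had 12 of 20 members higher and none lower (60% called, against 15.4% of all genes). The median was 0.57, and -0.06 after saline, and the difference from the saline comparison was called in 3 genes. The xenobiotic enzyme Cyp4b1 read 10.38, 10.91 and 10.98 in wild type and 12.36, 11.83 and 11.84 in the knockout, 2.38-fold higher (1.25 ± 0.17, adjusted p = 0.000449). The arrays did not overlap. Cyp2b10, a cytochrome P450 (0.82 ± 0.17), Fmo2, a flavin monooxygenase (0.65 ± 0.12), and Gstt1, a glutathione transferase (0.51 ± 0.11), rose as well. The count was 4 in a fit of the 6 bleomycin arrays alone and 6 without knockout replicate 1.

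Alveolar type 2 genes had 12 of 20 members higher and none lower (60% called, against 15.4% of all genes). The median was 0.49, and -0.05 after saline, and the difference from the saline comparison was called in 4 genes. Abca3, the lipid transporter of lamellar bodies, read 10.24, 10.90 and 10.92 in wild type and 11.46, 11.43 and 11.37 in the knockout (0.74 ± 0.15, adjusted p = 0.00515). S100g, a calcium-binding protein, rose by 1.23 (SE 0.24), and the transcription factor Cebpa by 0.51 (SE 0.10). Sftpa1, which encodes surfactant protein A, read 12.33, 13.31 and 13.15 in wild type and 13.78, 13.60 and 13.68 in the knockout (0.75 ± 0.18, adjusted p = 0.0146). Wild type replicate 1 was the lowest array for each of these 4 genes, and its list mean was 10.99 against 11.67 to 12.03 on the other 5 arrays. Without that array the median of the list was 0.27 and 9 genes were called higher. The number of genes called higher was 3 in a fit of the 6 bleomycin arrays alone, 3 without knockout replicate 1 and 7 without knockout replicate 3, and the call of Sftpa1 was lost in the first and second of these.

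Alveolar type 1 genes had 4 of 18 members higher and 1 lower (median 0.26, and 0.11 without wild type replicate 1). That is 27.8% of the list, against 15.4% of all genes called. Limch1, an actin-associated protein, rose by 0.49 (SE 0.08), and Cav1, the caveolin of flat alveolar cells and endothelium, by 0.32 (SE 0.09), while podoplanin (Pdpn) was lower (-0.34, adjusted p = 0.0389). The 4 rises became 1 in a fit of the 6 bleomycin arrays alone or without knockout replicate 1, and 2 without wild type replicate 1. The call of Limch1 was lost when its probe sets were averaged, and those of Cav1 and Pdpn in the fit of 6 arrays and without several single arrays, among them replicate 1 of either genotype.

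Keratins and other genes switched on in injured epithelium went the other way, with 8 of 20 lower and none higher (median -0.34). The share called was 40%, against 15.4% of all genes. The tight junction gene Cldn4 read 6.98, 6.07 and 6.68 in wild type and 5.01, 5.47 and 5.38 in the knockout (-1.29 ± 0.20, adjusted p = 0.000925). Sfn, the epithelial 14-3-3 sigma protein (-1.29 ± 0.18), Sprr1a, a cornified envelope protein (-1.14 ± 0.20), Ndrg1, a stress-induced gene (-1.07 ± 0.13), and the basal keratin Krt14 (-0.74 ± 0.14) fell. With probe sets averaged the Krt14 difference was -0.42. Krt8, the keratin used to mark transitional alveolar cells, did not pass (-0.30 ± 0.10, adjusted p = 0.0649).

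Vascular endothelial genes had 8 of 29 members higher and 3 lower (median 0.17, and 0.09 without knockout replicate 1). That is 37.9% of the list, against 15.4% of all genes called. Bmp6, an endothelial ligand of the BMP family, read 8.66, 8.86 and 8.80 in wild type and 10.15, 9.73 and 9.64 in the knockout (1.07 ± 0.12, adjusted p = 0.000137). The endothelin receptor Ednrb (1.28 ± 0.17), the VEGF receptor Kdr (0.63 ± 0.10) and the apelin gene Apln (0.64 ± 0.11) rose. Gja4, the arterial connexin 37, fell (-1.08 ± 0.13, adjusted p = 0.000216). The general endothelial markers Pecam1 (0.10, adjusted p = 0.665) and Cdh5 (0.17, adjusted p = 0.305) did not pass. The 8 rises became 5 in a fit of the 6 bleomycin arrays alone and without knockout replicate 1 or 2. Lymphatic endothelial genes had 4 of 9 members lower and none higher (44.4% called). They were led by the semaphorin Sema3d (-1.18 ± 0.15), and 2 were called without knockout replicate 1.

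Stress and metabolic lists were called at different shares. Of 24 genes of the unfolded protein response, 1 fell and none rose (4.17%, against 15.4% of all genes called). Of 23 p53 targets and senescence genes, 6 fell and 1 rose (30.4% called). Among the falls were Eda2r, a death receptor (-1.0 ± 0.14), Phlda3, an inhibitor of AKT (-0.55 ± 0.10), and the cell cycle inhibitor Cdkn1a (-0.87 ± 0.18, adjusted p = 0.00540). The 6 falls became 3 without wild type replicate 1 or without knockout replicate 1. Of 23 glycolysis and hypoxia genes, 8 fell and none rose (34.8% called). The falls were led by Ankrd37, a hypoxia-induced gene (-1.54 ± 0.14, adjusted p = 3.25e-05). Falls of the glycolytic enzymes Pgam1 (-0.49), Pgk1 (-0.38) and Ldha (-0.33) were smaller.

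Arginine and polyamine genes had 7 of 20 members lower and 1 higher (40% called, against 15.4% of all genes). Beside Arg1, Slc7a2, the arginine transporter of activated macrophages, read 9.64, 9.37 and 8.90 in wild type and 8.43, 8.36 and 8.32 in the knockout (-0.93 ± 0.14, adjusted p = 0.000937). Aldh18a1, the first enzyme of proline synthesis from glutamate, fell by 0.76 (SE 0.14), and Ddah1, which degrades an inhibitor of nitric oxide synthases, by 0.61 (SE 0.13).

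Integrin genes had 7 of 24 members lower and 2 higher (37.5% called, against 15.4% of all genes). The falls included the fibronectin receptor chain Itga5 (-0.93 ± 0.16) and Itgav, a chain of the integrins that activate latent TGF-beta (-0.46 ± 0.09). The 7 falls became 3 without knockout replicate 1 and 4 without wild type replicate 1 or with probe sets averaged, and the last also lost the call of Itgav and gave -0.58 for Itga5. Coagulation and plasminogen activation genes had 10 of 19 members lower and none higher (52.6% called, median -0.28). Tfpi2, an inhibitor of the tissue factor pathway, read 7.74, 7.20 and 7.33 in wild type and 5.69, 6.01 and 6.14 in the knockout (-1.48 ± 0.15, adjusted p = 6.17e-05). Tissue plasminogen activator (Plat, -0.86 ± 0.13), coagulation factor VII (F7, -0.96 ± 0.16) and tissue factor (F3, -0.66 ± 0.12) also fell. The mean over both Plat probe sets was -0.41. The 10 falls became 5 in a fit of the 6 bleomycin arrays alone or without knockout replicate 1.

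Some genes of other tissues or cells that a whole-lung sample can hold varied between arrays of the same group. The mean over 15 cardiac muscle genes was 6.46, 6.41 and 6.97 on the wild type arrays and 6.42, 7.43 and 8.40 on the knockout arrays. All 15 differences were positive (median 0.78, and 0.34 after saline), and 1 gene was called. After saline the means were 8.08, 8.10 and 8.61 in wild type and 8.19, 8.80 and 8.69 in the knockout. Without knockout replicate 1, 12 of the 15 were called higher, and 7 were with the replicate number as a block. The mean over 11 adipocyte genes was 6.24, 6.07 and 6.28 in wild type and 5.78, 5.95 and 7.35 in the knockout, with knockout replicate 3 above the rest and 2 genes called. The mesothelial list had 1 of 12 genes called, mesothelin (Msln, -1.57 ± 0.31, adjusted p = 0.00479). Of 13 skeletal muscle genes 1 rose (7.69%), of 10 thymocyte genes 2 rose (20%), and of 6 erythroid genes none was called by limma. Over all genes 15.4% were called. The part of these tissues in the results above was not tested. Knockout replicate 1, with the lowest cardiac mean of the knockout arrays, was also the lowest array for Saa3, Timp1 and Retnla. For the named falls Fst and Prg4 the lowest array was knockout replicate 2 (5.76 and 4.08). The cardiac mean of knockout replicate 1, 6.42, lay within the range of the wild type arrays. A link between these values was not tested.

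The largest named rises were those of Acoxl, Nrn1, Cyp1a1 and Mid1. A further 3 genes with clone or immunoglobulin segment names rose more than the last named rise and were left out by the rule. Acoxl read 6.11, 7.49 and 7.34 in wild type and 9.84, 9.43 and 9.05 in the knockout, 5.50-fold higher (2.46 ± 0.30, adjusted p = 0.000214). Nrn1, the neuritin gene, read 4.69, 5.83 and 5.45 against 8.40, 7.45 and 7.25 (2.38 ± 0.30, adjusted p = 0.000261). Cyp1a1, the cytochrome induced through the aryl hydrocarbon receptor, read 5.61, 7.40 and 7.15 against 9.48, 8.83 and 8.61 (2.25 ± 0.38, adjusted p = 0.00188). For each of these 3 genes wild type replicate 1 was the lowest array and knockout replicate 1 the highest. No arrays overlapped, which the rule for choosing these genes required.

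The remaining named rises lay between 2.25 and 1.68. They were the microtubule-associated ubiquitin ligase Mid1 (2.25), the amino acid transporter Slc7a10 (2.21), the keratin Krt79 (2.0), the fatty acid-binding protein Fabp1 (1.95), Jchain, Gzma, Bex2 (1.83), Ankrd63 (1.82), Lrmda (1.77), the sodium channel Scn3a (1.74), the interferon-inducible Ifi213 (1.73) and the insulin-like growth factor-binding protein Igfbp3 (1.68). For Fabp1 the wild type mean lay under the 25th percentile of probe sets. Mid1, Scn3a and Ifi213 each had 1 called probe set, of 3, 2 and 2 in turn, and the means over their probe sets were 0.82, 0.88 and 1.04. Mid1, Lrmda and Ifi213 were also called after saline.

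Some genotype differences were present without injury. Of the genes called after bleomycin, 49 were also called after saline, which is 1.75% of the bleomycin calls and 55.1% of the saline calls. The 2 comparisons use separate arrays. In 43 of the 49 the direction was the same, with 17 higher and 26 lower in the knockout. Cd59a read 9.13, 9.04 and 9.0 in wild type and 7.94, 8.02 and 8.07 in the knockout after bleomycin (-1.05 ± 0.07, adjusted p = 6e-06), and its saline difference was -1.11 (adjusted p = 9.75e-06). The arrays of each group were nearly equal, and the difference between both values did not pass (0.06, adjusted p = 0.779).

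Slc35a5, a nucleotide sugar transporter gene, had differences of -1.46 after bleomycin and -1.49 after saline. The noncoding gene Dubr (-1.30 and -1.80), Wdfy1, a phosphoinositide-binding adaptor (-1.43 and -1.73), and Tcim, a transcriptional and immune response regulator (-0.97 and -0.53), were also lower after both. Higher after both were Lrmda (1.77 and 1.42), Ifi213 (1.73 and 0.81), Nxpe3 (1.47 and 1.04), Tmem254a (1.31 and 0.74) and Timmdc1, an assembly factor of respiratory complex I (1.03 and 0.99). With probe sets averaged, the bleomycin differences were -0.67 for Slc35a5 and 0.86 for Nxpe3, both still called. Mid1 read 6.78, 6.29 and 6.11 in wild type and 8.27, 9.02 and 8.65 in the knockout after bleomycin, and its saline difference was 2.91 (adjusted p = 0.000761). Of the 43 genes, 9 (20.9%) lie on chromosome 16, which carries Retnlb, against 593 (3.26%) of the genes tested and 94 (3.35%) of the genes called after bleomycin.

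**Figure D5:**
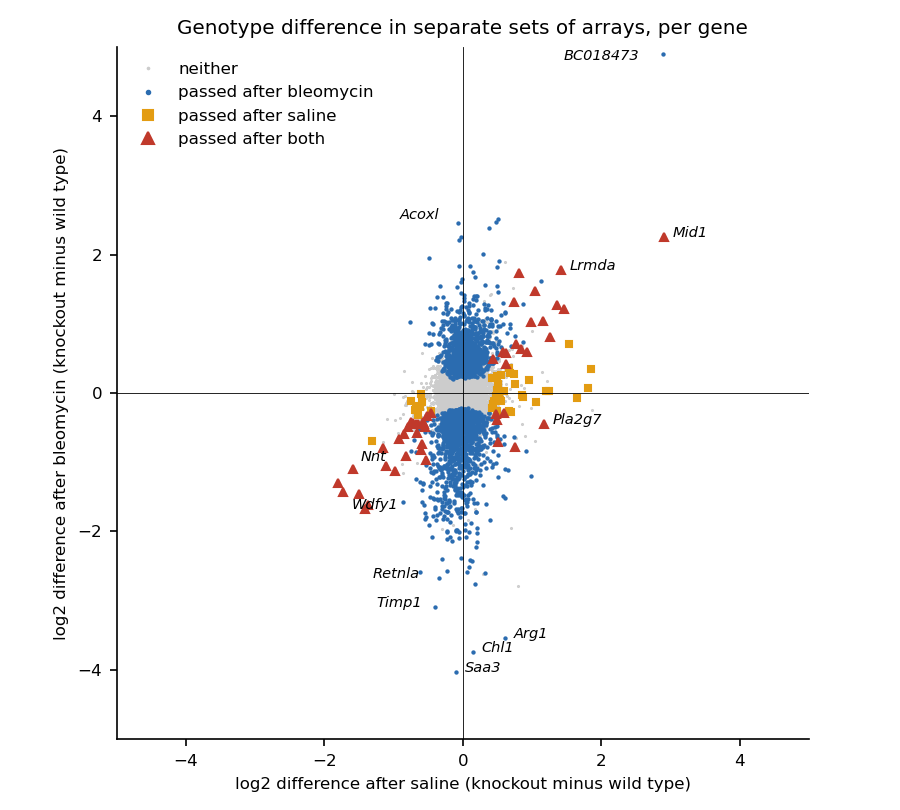
Log2 difference between knockout and wild type after saline (x axis) and after bleomycin (y axis), 1 point per gene, from separate arrays, with red triangles for the 49 genes called after both. Of the triangles, 43 have the same sign on both axes, such as Mid1 and Wdfy1, while Saa3, Chl1, Arg1 and Timp1 lie low on the y axis and near 0 on the x axis.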

How the data were processed

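Biotinylated cRNA from lung total RNA was hybridized to 12 Affymetrix arrays, per the labels' protocols. The deposited values are log2 values, and affy, RMA and limma stand, without versions, in the submitters' processing notes. The build behind the array annotation is not given in the sources used here, and promoter positions are those of the RefSeq table (GRCm38.p6). Of 45101 probe sets, 34958 were paired with 1 gene, 932 with several and 9211 with none. Symbols of 34754 were updated by Entrez identifier, and 9012 genes had more than 1 probe set.

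Under R 4.3.3, limma 3.58.1 (with statmod 1.5.0) fitted 1 mean for each of the 4 groups over all 12 arrays, without a block, and eBayes moderated the variances (8 residual and 4.86 prior degrees of freedom). No dim genes were removed. The threshold for a call was 0.05 after Benjamini-Hochberg adjustment of the limma p-values of 18194 genes. An SE comes from that fit and an SD from 3 arrays. For arrays, their number limits the precision. The procedure was tested on simulated data. Plots used matplotlib 3.10.9 (Python 3.11.15).

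The members and the 40 gene lists (897 names, 828 genes measured) were chosen with earlier results of these data known. Lists are described by counts and medians beside all genes, without a test. Named genes are the 15 largest falls and rises among calls without overlap between the groups' arrays (clone names, predicted models and immunoglobulin or T cell receptor segments left out), the resistin family, up to 5 called members with the smallest p per list, up to 3 textbook members that did not pass, and 5 per direction called after both treatments. Other genes named to illustrate a list were chosen after their values were seen.

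Alternatives were leaving out dim genes (average under 5), other normalizations, eBayes with trend, averaged or separate probe sets, the 6 bleomycin arrays alone, a 2-fold minimum, array weights, a block on the replicate number, and each bleomycin array left out. Same-numbered knockout and wild type bleomycin arrays had deviations correlated at -0.194, -0.0577 and 0.0628, so the numbers were not taken to pair the samples.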

Additional observations from a re-analysis of the deposited data

Results flagged for a closer look

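Of the 49 genes called after both treatments, 6 differed in opposite directions, being higher in the knockout after saline and lower after bleomycin. The change in the genotype difference is given as a description, since the genes were chosen for this pattern. Pla2g7, which hydrolyses platelet-activating factor, had means of 6.21 and 7.39 in wild type and knockout after saline and of 7.97 and 7.53 after bleomycin, a change in the genotype difference of -1.62. The neutrophil collagenase gene Mmp8 had means of 5.12 and 5.88 after saline and 6.36 and 5.58 after bleomycin (-1.54).

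The other 4 were Ms4a6c, a membrane gene of monocytes (-1.23), Fcer1g, the shared signalling chain of Fc receptors (-0.90), the receptor Gpr35 (-0.89) and Rgs2, a regulator of G protein signalling (-0.77). The bleomycin calls of Fcer1g, Gpr35, Pla2g7 and Rgs2 were each lost when some single arrays were left out. Those of Gpr35 and Rgs2 were also lost in the fit of the 6 bleomycin arrays, that of Gpr35 with the replicate number as a block or with a variance trend, that of Pla2g7 with the quantile normalization repeated, and that of Rgs2 with probe sets averaged. The bleomycin call of Ms4a6c was lost when its 2 probe sets were averaged (-0.13, adjusted p = 0.485).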

How the results depend on the processing

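Counts of called genes after bleomycin were 2804 in all, 1369 higher and 1435 lower. Leaving out 1 bleomycin array gave 1653 to 2617 in all, 738 to 1267 higher and 915 to 1350 lower, lowest without knockout replicate 1. A 2-fold minimum left 394 (121 higher, 273 lower), and the 6 bleomycin arrays alone gave 1960, of which 881 were higher. Subtracting array medians, repeating the quantile normalization, a variance trend, averaging probe sets, array weights and leaving out dim genes gave 2639 to 2875, and the share of higher genes was 44.6% to 53% over these settings and the arrays left out. With the replicate number as a block, 2415 genes were called after bleomycin (1166 higher, 1249 lower), 76 after saline, and the difference between the genotype differences was called for 601 genes in place of 914. The cause of these changes was not tested, beyond fewer samples or a stricter threshold. No named gene or list gene past the threshold changed direction under these settings. The number of arrays and the lower end of the scale, where RMA values have no detection calls, limit what can be seen of dim genes such as Retnlb.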

Other observations

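The largest rise of all was left out of the named genes because its symbol is a clone name. BC018473 was higher in the knockout by 4.90 after bleomycin, where it was called, and by 2.90 after saline, where it was not called. The immunoglobulin light chain entries Igk and Iglv1 were higher by 2.47 and 2.52 after bleomycin and by 0.48 and 0.51 after saline.

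Nnt, the mitochondrial transhydrogenase gene that is known to differ between C57BL/6 substrains, was chosen after its values were seen. Nnt differed between knockout and wild type by -1.10 after bleomycin and -1.59 after saline, on separate arrays, and was called in both. Whether the substrain differed between the genotypes was not tested. Chil4 (Ym2), a chitinase-like gene of the type 2 list, read 3.97, 10.19 and 5.74 on the wild type arrays after bleomycin and 4.18, 3.73 and 4.12 on the knockout arrays. Wild type replicate 2 stood far above every other array, and the gene did not pass (-2.62 ± 1.04, adjusted p = 0.113).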
